A study of Mus musculus with 7 samples.

Results

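The promoters of 10 immediate early genes outside the AP-1 family, *Egr1*, *Egr2*, *Egr3*, *Ier2*, *Ier3*, *Atf3*, *Nr4a1*, *Dusp1*, *Klf4* and *Btg2*, were examined in DNase-Seq data of a mouse podocyte line, conditionally immortalised and differentiated, which serves as a model of the glomerular epithelium. A promoter peak was any listed peak that overlapped 500 nt on either side of a transcription start site (TSS) of a protein-coding transcript. All 10 genes, of 21866 protein-coding genes with such a TSS, had a promoter peak in every condition, as did 99.9% of those genes. Their promoter peaks numbered 16 of 1036304 peaks in the normal glucose list (NG), 13 of 846027 in the high glucose list with a non-targeting mimic (HG+NT) and 14 of 900109 in the high glucose list with the miR-93 mimic (HG+miR-93). NG cells were kept in 5 mM glucose, and HG+NT and HG+miR-93 cells in 25 mM glucose with 50 nM of the named mimic, each for 36 h and with 2 replicates. The labels name no mimic for NG. HG+NT and NG therefore differ in glucose and in the named mimic together, and glucose and mimic cannot be told apart in that comparison. Genomic DNA, 1 sample, was the input. The design asks which sites differ in high glucose and whether the miR-93 mimic takes such differences back.

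Immediate early genes are transcribed within minutes of a growth factor, stress or calcium signal, from factors already present in the cell and without new protein synthesis. Their promoters are typically accessible before the signal arrives, and many carry CArG boxes, which bind serum response factor with its ternary complex partners, and cAMP response elements, which bind CREB family factors phosphorylated at the end of MAP kinase pathways. Several of their products are transcription factors, and others, such as the phosphatase of *Dusp1*, limit the signal that induced them.

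Each condition had 1 deposited list, in which its replicates appear to be pooled, so the variation of replicates is unknown and conditions were compared by size alone, without a test. DNaseI releases fragments from DNA not covered by nucleosomes. The number of fragments at the summit of a peak was recovered from its listed fold and −log10 p, and is given as the pileup, in fragments scaled to the depth of the input. Pileups carry 95% exact Poisson intervals, and ratios of pileups carry 95% exact binomial intervals conditional on the sum of fragments. Both cover counting error only and are not adjusted for the number of genes compared. The lists were 2.24 (NG), 3.85 (HG+NT) and 5.15 (HG+miR-93) times as deep as the input, so that NG values are the least precise. Where 3 values follow each other without labels, their order is NG, HG+NT, HG+miR-93. For every gene and list, the promoter peak with the highest fold was used unless another is named, and all protein-coding genes with such a peak in the 3 lists, 21835 in number, were the background.

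Promoter pileup was highest in HG+NT at 9 of the 10 genes, against 26.9% of all promoters, and it was lowest in HG+NT at *Egr2* alone, against 30.2%. HG+NT lay above NG at 9 of 10 genes (37.6% of all promoters) with a median ratio of 1.13, where the median over all promoters was 0.904. HG+miR-93 lay below HG+NT at 9 of 10 genes (59.2% of all promoters) with a median ratio of 0.731, against 0.952 over all promoters. HG+miR-93 lay below NG at 9 of 10 genes as well (67.5% of all promoters), with a median ratio of 0.829 against 0.870. The order HG+NT, NG, HG+miR-93 was thus the usual one among the members, and the separate steps were small. With the peak of highest pileup in place of that of highest fold, HG+NT was the highest at 8 of 10 genes, against 25.8% of all promoters.

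**Figure D1:**
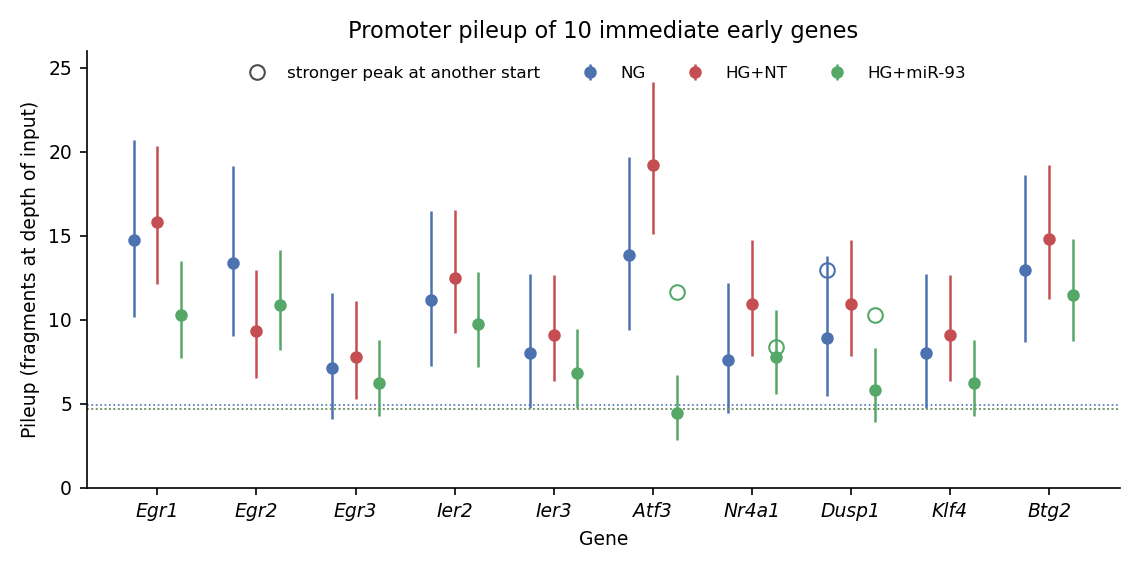
Pileup (fragments at the depth of the input) at the promoter peak with the highest fold of each gene and condition, with 95% exact Poisson intervals as bars. Open circles mark a stronger peak at another TSS of the same gene, and dotted lines the median promoter of each list (4.91, 4.67 and 4.66); the HG+NT point is the highest at 9 of 10 genes.

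*Egr1*, *Egr2* and *Egr3* encode zinc finger transcription factors that bind GC-rich sites. *Egr1* occupies 34859823 to 34864984 of chromosome 18 (plus strand, GRCm38). Its pileup was 14.7 (10.1 to 20.7), 15.8 (12.1 to 20.3) and 10.3 (7.72 to 13.5). HG+miR-93 was the lowest, with a ratio to HG+NT of 0.650 (0.441 to 0.955). The 3 summits fell in exonic untranslated sequence, but at different positions, 519 to 1072 nt apart. In HG+miR-93 the region was moreover split into separate peaks, of which the 1 upstream of the TSS had a pileup of only 2.72 (1.49 to 4.56). With summits required to lie within 500 nt of the TSS, that weak peak was the only HG+miR-93 peak left and the ratio to HG+NT became 0.172. The HG+NT summit lay nearest to a second TSS, 34861207, and those of the other lists to 34859823, so both ratios compare different positions.

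*Egr2* (chromosome 10, 67535475 to 67542188, plus strand) went against the other members. Its pileups were 13.4 (9.04 to 19.1), 9.35 (6.55 to 12.9) and 10.9 (8.22 to 14.1). HG+NT was the lowest of the 3, with a ratio to NG of 0.698 (0.418 to 1.17), and the intervals overlapped. All summits lay in an intron of the longer transcripts, at -326, -302 and -119 nt from the same TSS, where negative values are upstream. *Egr3* (chromosome 14, 70077203 to 70082614, plus strand) had lower pileups of 7.15 (4.08 to 11.6), 7.79 (5.26 to 11.1) and 6.22 (4.25 to 8.78). Its peaks covered the promoter, but their summits lay at -2238, -2617 and -2170 nt in all lists, so these values describe a region upstream of the gene and not the start itself. The local mean of the input there was 1.58, 2.00 and 1.60 fragments, the lowest among the members' peaks of highest fold in each list.

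The start of *Egr2* is shown because, of the members with a RefSeq window, *Egr2* alone had a CArG box. The sequence covers chr10:67537619-67537868 of GRCm38.p6 from RefSeq, on the plus strand and 5′ to 3′, up to the base before the TSS. The capitals mark a CArG box and, on either side of it, TGACG on each strand. The HG+miR-93 summit lay 47 nt from this CArG box and 8 nt from the nearer TGACG.
Egr2: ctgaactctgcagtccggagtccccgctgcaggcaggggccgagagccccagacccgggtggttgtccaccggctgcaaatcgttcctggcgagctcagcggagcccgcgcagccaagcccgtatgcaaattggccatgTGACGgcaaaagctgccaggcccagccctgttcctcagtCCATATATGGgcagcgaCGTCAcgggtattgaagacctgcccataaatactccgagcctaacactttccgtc

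Another CArG box lay further upstream, in a second RefSeq window of the gene, 40 nt from the NG summit and 64 nt from the HG+NT summit. The summits of the lists thus fell beside different CArG boxes. Whether serum response factor was bound was not measured.

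*Atf3*, *Nr4a1* and *Klf4* encode transcription factors of other families. *Atf3*, a stress-induced member of the ATF/CREB family, occupies 191170296 to 191218039 of chromosome 1 (minus strand) and has 2 TSSs, 191183340 and 191218039. At the first, the pileup was 13.8 (9.41 to 19.7), 19.2 (15.1 to 24.1) and 11.7 (8.90 to 15). The HG+NT value was the highest of any member in any list and stood at percentile 99.3 of all promoters. The ratio of HG+NT to NG was 1.39 (0.901 to 2.18). That of HG+miR-93 to HG+NT was 0.607 (0.424 to 0.865), and the intervals of these pileups just failed to overlap. The summits of the latter lists lay 9 nt apart, so the same site was read. *Atf3* was the only member with separate intervals at 1 site. Over all promoters, the intervals of HG+miR-93 and HG+NT were separate at 2.34% at the peak of highest fold. That share was not counted at the peak of highest pileup, which was read here. The highest fold in HG+miR-93 belonged to the other TSS, with a pileup of 4.47 (2.83 to 6.71), and the ratio of 0.233 that the rule of highest fold gives for *Atf3* sets different TSSs against each other.

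*Nr4a1* (chromosome 15, 101254269 to 101274795, plus strand), which encodes an orphan nuclear receptor, has TSSs at 101254269 and 101266846. At the second, the pileup was 7.59 (4.42 to 12.2), 10.9 (7.86 to 14.7) and 7.77 (5.55 to 10.6). The ratio of HG+NT to NG, 1.44 (0.8 to 2.69), was the highest of the members. Relative to the median promoter of the chromosome of each gene it was no longer the highest, with 1.33 against 1.69 at *Atf3*. Around the first TSS, NG had 3 short peaks of 222 to 871 nt where the other lists had 1 each. The strongest peaks there had pileups of 7.59 (4.42 to 12.2), 5.97 (3.79 to 8.96) and 8.36 (6.05 to 11.3), with HG+NT the lowest. *Klf4* (chromosome 4, 55527143 to 55532466, minus strand) encodes a zinc finger factor. Its pileup was 8.04 (4.76 to 12.7), 9.09 (6.33 to 12.6) and 6.22 (4.25 to 8.78), and its summits lay upstream of the TSS in the 3 lists, at -442, -177 and -195 nt. Those of HG+NT and HG+miR-93, 18 nt apart, had a pileup ratio of 0.684 (0.410 to 1.14).

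The starts of *Atf3*, with the highest pileup, and *Nr4a1*, with 4 matches to TGACG, are shown from RefSeq (GRCm38.p6), each on the strand of the gene and up to the base before the TSS. They cover chr1:191183341-191183583 on the minus strand and chr15:101266596-101266845 on the plus strand. Capitals mark the GC box GGGCGG, on either strand, in *Atf3* and TGACG, on either strand, in *Nr4a1*. In *Atf3* the summits of HG+NT and HG+miR-93 lay on opposite sides of the last GC box, each 2 nt from it. The NG summit lay 133 nt from that box. In *Nr4a1* the HG+NT summit lay 16 nt from the third TGACG match. The HG+miR-93 summit lay 68 nt from the fourth, and the NG summit 235 nt from it.
Atf3: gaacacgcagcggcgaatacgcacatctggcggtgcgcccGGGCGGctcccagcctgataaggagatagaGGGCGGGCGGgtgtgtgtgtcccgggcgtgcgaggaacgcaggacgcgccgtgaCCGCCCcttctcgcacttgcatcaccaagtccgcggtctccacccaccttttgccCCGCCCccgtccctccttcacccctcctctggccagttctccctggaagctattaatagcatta
Nr4a1: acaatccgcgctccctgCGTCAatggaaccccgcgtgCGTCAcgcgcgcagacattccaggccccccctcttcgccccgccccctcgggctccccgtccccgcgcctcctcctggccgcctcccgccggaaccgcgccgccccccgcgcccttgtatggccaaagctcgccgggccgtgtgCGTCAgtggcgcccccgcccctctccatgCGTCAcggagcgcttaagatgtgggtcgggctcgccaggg

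*Dusp1*, *Btg2*, *Ier2* and *Ier3* do not encode DNA-binding factors of the families above. *Dusp1*, a phosphatase that inactivates MAP kinases, occupies 26505590 to 26562128 of chromosome 17 (minus strand). At its TSSs 26508472 and 26508519 the pileup was 13.0 (8.67 to 18.6), 10.9 (7.86 to 14.7) and 10.3 (7.72 to 13.5). At the distant TSS 26562128 the values were 8.93 (5.46 to 13.8), 6.49 (4.20 to 9.58) and 5.83 (3.93 to 8.32). Both sites thus ran downward from NG to HG+miR-93 with overlapping intervals. The highest fold lay at the distant TSS in NG and HG+miR-93 and at the others in HG+NT, so *Dusp1* counts among the 9 genes with HG+NT highest only because different TSSs were compared. Read at 1 site, its ratio of HG+NT to NG was 0.842 (0.512 to 1.4).

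*Btg2* (chromosome 1, 134075170 to 134079120, minus strand), an antiproliferative gene whose product acts with the CCR4-NOT deadenylase, had pileups of 13.0 (8.67 to 18.6), 14.8 (11.2 to 19.2) and 11.5 (8.73 to 14.8). The summits of HG+NT and HG+miR-93 were 1 nt apart, at -189 and -188 nt, and the ratio of their pileups was 0.775 (0.529 to 1.13). The NG summit lay at 51 nt in exonic untranslated sequence. *Ier2* (chromosome 8, 84661331 to 84662852, minus strand), which encodes a nuclear protein, had pileups of 11.2 (7.23 to 16.5), 12.5 (9.19 to 16.5) and 9.72 (7.21 to 12.8) with summits at -6, 216 and 1035 nt. Its HG+NT peak and that of *Atf3* were the only promoter peaks of the members with a −log10 q above 0, at 0.599 and 0.488. *Ier3* (chromosome 17, 35821684 to 35822923, plus strand), linked to cell survival, had pileups of 8.04 (4.76 to 12.7), 9.09 (6.33 to 12.6) and 6.80 (4.74 to 9.46). All intervals of these genes overlapped between the lists.

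*Btg2* and *Dusp1* are shown because their RefSeq windows held the full cAMP response element TGACGTCA. The sequences cover chr1:134079156-134079405 and chr17:26508520-26508722 of GRCm38.p6, both on the minus strand, 5′ to 3′. That of *Dusp1* ends before its most upstream TSS in this region. Capitals mark TGACGTCA and, in *Dusp1*, another TGACG. In *Btg2* the summits of HG+NT and HG+miR-93 lay 5 and 6 nt from the element, and the NG summit 245 nt from it. In *Dusp1* the HG+NT summit lay 28 nt from it, the NG summit 183 nt and the HG+miR-93 summit 145 nt.
Btg2: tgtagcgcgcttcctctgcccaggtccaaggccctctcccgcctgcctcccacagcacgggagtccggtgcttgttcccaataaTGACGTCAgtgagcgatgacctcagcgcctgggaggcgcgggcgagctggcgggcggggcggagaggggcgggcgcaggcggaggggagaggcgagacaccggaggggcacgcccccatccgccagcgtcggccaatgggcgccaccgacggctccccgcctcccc
Dusp1: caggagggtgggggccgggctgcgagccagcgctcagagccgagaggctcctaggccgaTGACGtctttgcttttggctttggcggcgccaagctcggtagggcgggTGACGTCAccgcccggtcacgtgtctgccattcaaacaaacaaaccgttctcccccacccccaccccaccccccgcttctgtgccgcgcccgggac

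Few members passed a ratio of 1.5. From NG to HG+NT none was at least 1.5 times higher (7.73% of all promoters) or lower (19.5%). In HG+miR-93 against HG+NT none was higher (4.36%) and 3 were lower, *Egr1*, *Atf3* and *Dusp1* (9.03%). In HG+miR-93 against NG none was higher (6.35%) and 2 were lower, *Atf3* and *Dusp1* (24.5%), which is no more than the background. Against HG+NT all 3 were read at different TSSs, *Egr1* with summits 553 nt apart. Against NG, *Atf3* rested on different TSSs and *Dusp1* on the distant TSS, with summits 719 nt apart. At the peak of highest pileup, 2 members, *Egr1* and *Atf3*, had a pileup at least 1.5 times lower under the miR-93 mimic than in HG+NT (5.67% of all promoters).

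Counting error covered most of the differences. The 95% intervals of the pileups did not overlap at 0 of 10 members for HG+NT against NG (2.91% of all promoters), at 1 for HG+miR-93 against HG+NT (2.34%) and at 1 for HG+miR-93 against NG (3.81%). In both cases the gene was *Atf3*, read at different TSSs. By the narrower measure, the interval of the ratio did not include 1 at 0 (6.99% of all promoters), 3 (5.20%) and 1 (9.64%) members in the same comparisons. The 3 were *Egr1*, *Atf3* and *Dusp1*, the last with 0.535 (0.323 to 0.875), and at the peak of highest pileup *Egr1* and *Atf3* remained (2.24%). At the peak of highest fold, 9 of 10 ratios of HG+NT to NG were above 1 and 9 of 10 of HG+miR-93 to HG+NT below 1. With the peak of highest pileup, 8 of 10 ratios of HG+NT to NG were above 1. The ratios were mostly small, and every interval of HG+NT against NG included 1, so the direction at single members is not settled there. Ratios of HG+NT to NG ran from 0.698 to 1.44, and those of HG+miR-93 to HG+NT from 0.233 to 1.16, or from 0.607 by highest pileup.

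**Figure D2:**
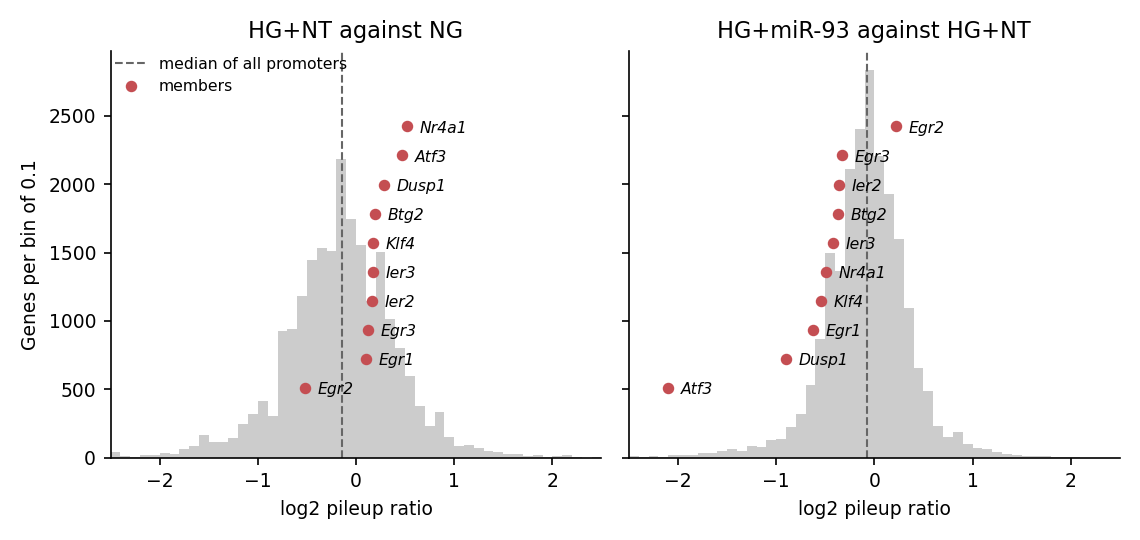
Log2 pileup ratio of all 21835 promoters in bins of 0.1 (grey bars, genes per bin) with the 10 members as points, ordered by ratio; the height of a point has no meaning, and values beyond the axis are in the outer bins. Of the members, 9 lie to the right of 0 in HG+NT against NG and 9 to the left of 0 in HG+miR-93 against HG+NT.

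The members were strong promoters, and the share of strong promoters that were lower in HG+miR-93 was larger than that of all promoters. Their median pileup was 10, 10.9 and 7.29, against 4.91, 4.67 and 4.66 over all promoters. At the peak of highest pileup it was 12.1, 10.9 and 10 (5.81, 4.93 and 4.86 over all promoters), with NG and not HG+NT the highest. Among the 5234 promoters whose mean pileup lay within the range of the members, 7.05 to 13.6, HG+miR-93 was below HG+NT at 77.2% and HG+NT above NG at 30%, and HG+NT was the highest at 27.6%. HG+miR-93 was below NG at 85.2% of these promoters, with a median ratio of 0.740, where the members had 9 of 10 and 0.829. For HG+miR-93 against HG+NT the median ratio of these promoters was 0.861, where the members had 0.731. A pileup at least 1.5 times lower was found at 13.1% of them, against 3 of 10 members, which were read at different TSSs. By size the members thus lay further below HG+NT than promoters of similar height. By count, the 9 of 10 members below HG+NT and the 9 of 10 below NG were close to the shares at those promoters. The 9 of 10 with HG+NT above NG, which include *Dusp1* read at different TSSs, were not. The NG list is the shallowest, and the part of depth in these shares was not tested.

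The members were also ranked by the authors' fold. The median percentile of their fold among all promoters was 79.1, 91.0 and 67.6. By pileup it was 83.1, 92.5 and 83.4. At these peaks HG+NT ranked them highest on both scales, but the order depended on the peak: by pileup at the peak of highest pileup the medians were 91.5, 92.0 and 94.2, and by the sum of the folds of all promoter peaks 48.9, 63.3 and 68.1, with HG+miR-93 the highest in both. Single genes diverged, since the fold divides by the local mean of the input at the summit. *Egr1* in HG+miR-93 stood at percentile 12.1 by fold and 95.5 by pileup, with a local mean of 9 fragments, the highest of the members. *Egr2* in the same list stood at 99.9 by fold, with a local mean of 2.00, and at 96.5 by pileup. Over all promoters the median local mean was 2.00 in each list, and over the members 4, 4.70 and 2.80, so that the input itself was high at these promoters.

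The peaks differed in shape between the lists as well as in height. Of the members' 43 promoter peaks, 34 had the summit within 500 nt of a TSS. For the peak of highest fold this held at 8, 9 and 7 members, against 60.9%, 57.7% and 56.9% of all promoters. Median widths were 4115, 6568 and 9015 nt, against 3415, 4307 and 4251 nt over all promoters. The widths were thus largest in HG+miR-93, and in all lists they exceeded those of other promoters. The *Ier3* peaks of NG and HG+NT also covered the promoter of *Flot1*, and the distant *Dusp1* peaks of all 3 lists that of *Ergic1*, so that their values cannot be assigned to 1 gene.

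**Figure D3:**
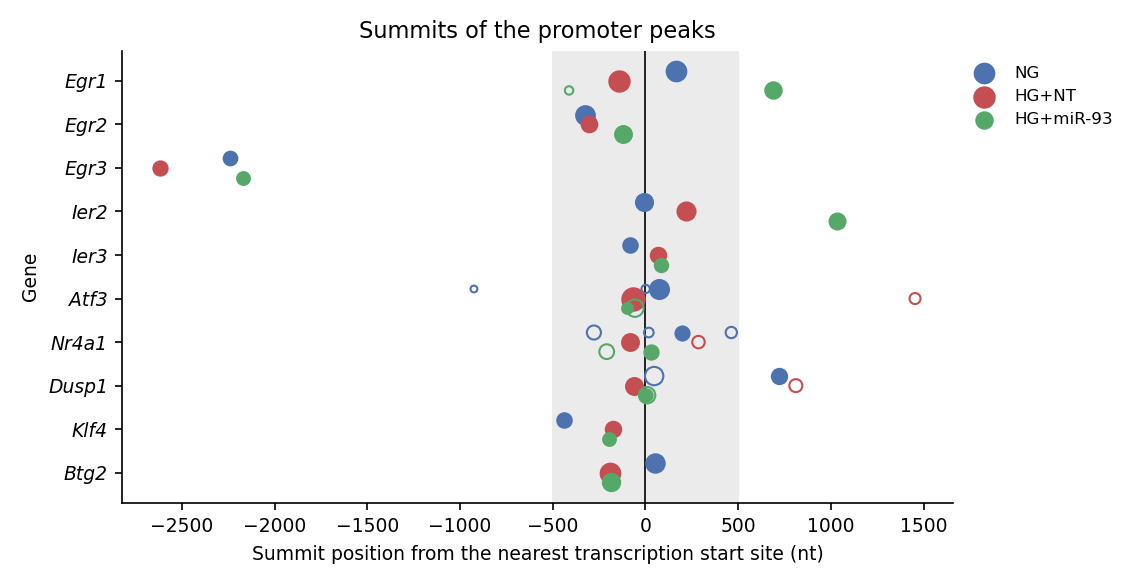
Summit of each promoter peak relative to the nearest TSS of its gene (nt, negative upstream), by list, with the area of a point proportional to its pileup. Filled points are the peaks of highest fold, open points the other promoter peaks, and the grey band is 500 nt on either side of the TSS; the *Egr3* summits lie at -2617 to -2170 nt.

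RefSeq promoter windows, from 250 bases before to 50 after a start, were found for 7 of the 10 members, 11 windows in all, 5 of them of *Egr2*. There was no entry for *Egr1*, *Egr3* and *Ier2*. The windows were rich in CpG, with a median of 27 CpG and 64.7% GC, against 7 and 52.7% over all 32851 windows. Both strands were searched. The GC box GGGCGG was found in 7 of 7 members (38.2% of all 27025 genes with a window) and TGACG in 6 of 7, in all but *Ier3* (23.0%). TGACGTCA, which contains TGACG on both strands, was found in 2 of 7 (2.03%), and a CArG box in 1 of 7 (1.81%). The EGR site GCGNGGGCG, which can overlap the GC box, was found in *Nr4a1*, *Klf4* and *Btg2* (6.27%), CCAAT in 4 of 7 (41.1%) and CACGTG in 3 of 7 (8.09%). The AP-1 site TGANTCA (8.97%) and TATAAA (15.7%) were in none. These genes thus shared GC boxes and, in all but *Ier3*, TGACG, and had no TATAAA motif or AP-1 site within the window. Counted per window, 20.8% of all windows held TGACG, 35.7% GGGCGG, 1.79% TGACGTCA and 1.63% a CArG box. Matches of letters were counted, not bound factors, and sequence rich in GC holds more GC boxes. TGACG, TGACGTCA, GCGNGGGCG and CACGTG each contain CpG, in which these windows were rich, and *Egr2* could match in any of 5 windows. The part of base composition and of the number of windows in these counts was not tested.

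The promoter was not always the strongest peak of its neighbourhood. Within 20000 nt of the gene body and more than 500 nt from its TSSs, a peak with a higher −log10 p than any promoter peak was found at 6, 3 and 6 members, against 62.8%, 63.3% and 67.5% of all genes. Some of these were promoters of neighbouring genes, such as that of *Mdc1* beside *Ier3* in NG and HG+miR-93 and that of *Ado* beside *Egr2* in NG. A distal peak lay upstream of *Nr4a1* in each list. Its summits were 7848 nt (NG) and 7720 nt (HG+NT) upstream of the first TSS and, for HG+miR-93, 59 nt from that of NG. In the same order, its pileup was 15.2 (10.5 to 21.2), 14.5 (11.0 to 18.9) and 10.3 (7.72 to 13.5), above that of the *Nr4a1* promoter in each list, and its intervals overlapped. A peak in the 3′ part of *Nr4a1*, in an intron at 101272689, had the highest −log10 p in HG+miR-93, 3.62, with a pileup of 7.58 (5.39 to 10.4), and HG+NT had 7.27 (4.83 to 10.5) with a summit 93 nt away. Upstream of *Atf3*, at 191224872, the NG pileup was 11.2 (7.23 to 16.5), and that of the peaks there in HG+NT and HG+miR-93 was 6.23 (3.99 to 9.27) and 6.80 (4.74 to 9.46).

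Other gene lists were read in the same way. Of 30 other immediate early genes, HG+NT was the highest at 14 and above NG at 15, with a median ratio to NG of 0.967, and HG+miR-93 was below HG+NT at 25, with a median ratio of 0.887. HG+miR-93 was below HG+NT at 59.2% of all promoters and at 77.2% of those within the members' range of mean pileup. HG+NT was above NG at 37.6% and 30% of these. At the members each count was 9 of 10. Of the 30 genes, *Ccn2*, a secreted matrix protein gene, had the highest ratio of HG+NT to NG, 2.48. The lowest were at *Tsc22d1* and *Sgk1*, with 0.349 and 0.374. Of the 7 AP-1 genes, HG+NT was the highest at 4 and above NG at 5, with a median ratio of 1.25, from 0.678 at *Fosb* to 1.33 at *Jun*. HG+miR-93 was below HG+NT at 6 of them. Of 16 regulators upstream of immediate early genes, among them serum response factor, ternary complex factors, CREB family members and MAP kinases, HG+NT was the highest at 9 and HG+miR-93 below HG+NT at 12. Their ratio of HG+NT to NG was highest at *Map2k2*, with 2.27, and *Srf* had a ratio of HG+miR-93 to HG+NT of 0.348. Genes with several TSSs may be read at different TSSs in these lists, as *Atf3* and *Dusp1* were.

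**Figure D4:**
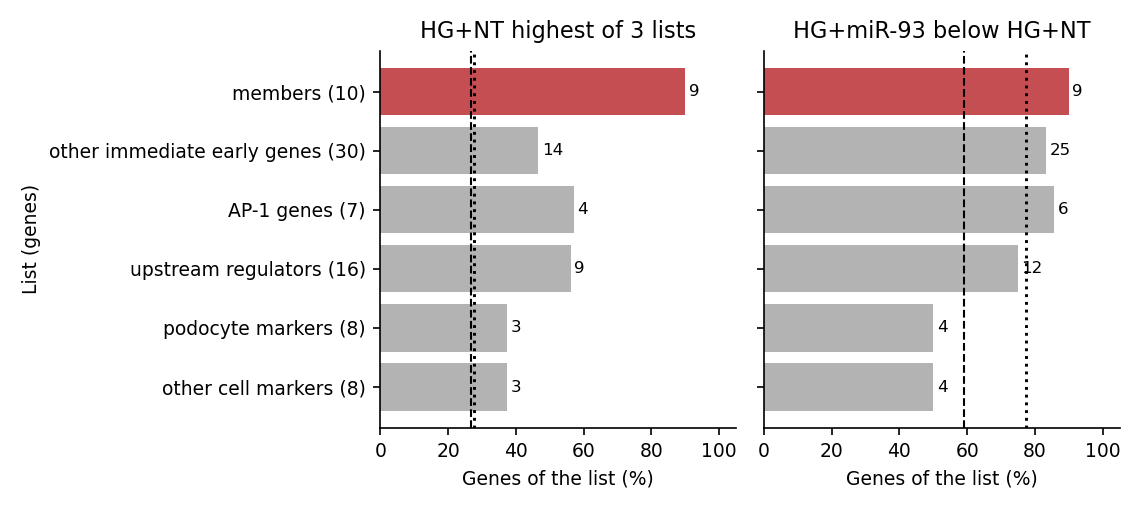
Share of the genes of each list (%) at which HG+NT had the highest pileup of the 3 lists (left) and HG+miR-93 lay below HG+NT (right), with the number of genes at each bar and the size of the list in parentheses. The dashed lines are the shares over all promoters, 26.9% and 59.2%, and the dotted lines those over promoters within the members' range of mean pileup, 27.6% and 77.2%.

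Markers placed the members against the identity of the cells. Of 9 podocyte markers, 8 had a promoter peak in all lists, and their median pileup was 6.25, 6.23 and 5.83. Over 8 markers of endothelial, mesangial, blood and tubule cells it was 4.02, 4.54 and 4.96. By pileup the podocyte list was the higher in each condition, but the defining gene *Nphs1*, named here outside the rule for lists and after its values were seen, stood only at percentiles of 35.0, 45.2 and 50.8 by pileup. HG+NT was the highest at 3 podocyte markers and at 3 of the other markers. The members lay above both marker lists by median pileup, but not in every condition by fold, which takes the input into account. The median fold percentiles of the podocyte markers were 80, 79.0 and 67.8, and those of the other markers 30.6, 68.9 and 78.0, against 79.1, 91.0 and 67.6 for the members. Only in HG+NT were the members above both by fold, and in HG+miR-93 the other cell markers were the highest of the 3 lists of genes.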

How the data were processed

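DNase-Seq peaks of 3 conditions were analysed, with the groups taken from the sample titles. According to the submitters' processing notes, bases were called with CASAVA 1.8.2, reads were trimmed (with TrimGalore! according to the paper) and aligned by Bowtie (mm10), duplicates were discarded, and MACS2 called the peaks with genomic DNA as control; the paper points to published recommendations for the MACS2 parameters, whose values are not given in the sources used here. The deposited fold is a ratio of fragments at the summit to the local mean of the input, each increased by 1, and the deposited −log10 p and −log10 q come from a Poisson model. Each peak's fold and p together gave its fragments and its local mean, the latter in steps of 0.02 or coarser. Every peak could be solved, in HG+miR-93 99.0% and in the other lists more of them in a single way, as were all promoter peaks of the members. Where several solutions fitted, that with fewest fragments was taken. All peaks ended within the chromosomes of GRCm38, and TSSs were those of GENCODE vM21. A ratio of 1.5 was the threshold for counts. All members were named, and from each other list at most 3 genes with the highest or lowest ratio. The members and lists were chosen with earlier results of these data known. The programs were also run on simulated data with known answers. The software was matplotlib 3.10.9, scipy 1.17.1, pandas 2.3.3, numpy 2.4.6 and Python 3.11.15.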

Additional observations from a re-analysis of the deposited data

How the results depend on the processing

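The counts were recomputed with promoters of 1000 nt on either side, summits in the promoter, the peak of highest pileup, the solution with the most fragments, pileups relative to the median promoter of the list or of the chromosome, a −log10 p of at least 1, and, chosen after seeing the data, 1 TSS per gene and the members on chromosomes 8 and 15 left out. HG+NT was the highest at 8 of 10 to 9 of 10 members where all 10 could be read, at 6 of 8 with summits in the promoter, and at 7 of 8 with a −log10 p of at least 1 or without chromosomes 8 and 15, against 25.8% to 33.5% of all promoters. The median over all promoters was shifted by -0.14 (HG+NT against NG), -0.07 (HG+miR-93 against HG+NT) and -0.20 (HG+miR-93 against NG) on the log2 scale. Relative to the median promoter of the list, HG+NT was above NG at 9 of 10 members and 43.1% of all promoters, and relative to that of the chromosome at 9 of 10 and 49.6%. In each case 1 member was then at least 1.5 times higher than NG, *Nr4a1* (1.51) and *Atf3* (1.69), and 1 in place of 2 was lower in HG+miR-93 than in NG. That last count was 0 with the peak of highest pileup and with 1 TSS per gene. With a threshold of 2, HG+miR-93 was lower than HG+NT at 1 member and lower than NG at 1. The median fold percentile was 48.9, 63.3 and 68.1 with folds summed, so that HG+miR-93 and not HG+NT was the highest, and 61.1 (NG) and 72.4 (HG+NT) with a −log10 p of at least 1; the causes were not tested. Relative to the chromosome, HG+miR-93 was below NG at 8 of 10 members and 54.7% of all promoters. *Dusp1* was below NG in HG+NT, at 0.842, with summits in the promoter, the peak of highest pileup or 1 TSS per gene. Of 252 ratios of single members, 244 stayed within their counting intervals and 8 did not. Some of the 252 could not move. All member peaks had a single solution, and leaving out chromosomes 8 and 15 does not alter the ratios of the other members. The ratio moved to the other side of 1 in 6 cases, those of *Dusp1* and 3 of HG+miR-93 to NG relative to the chromosome. The latter were *Ier3* (1.01), *Btg2* (1.06) and *Nr4a1* (0.941). No member had a −log10 q of at least 2, so that alternative gave no value. Other counts stayed within 1.5 times, other median ratios within the counting intervals and other percentiles within 1 SD of the members. No paired analysis was possible because the lists pool the replicates, and for the same reason no replicate could be left out. With 16 to 74 fragments at a member's peak, a ratio of 1.5 was often within counting error.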
